A study of Mus musculus with 12 samples.

Results

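Tmem132b, Lctl, Vat1l, Efemp1, Ahnak, Phldb1, Ccdc152 and Gabrr2 are 8 mouse genes that were followed here through the adipocytes of 4 fat depots. They are 8 of the 32285 genes in the deposited matrices and were taken by symbol, each matching 1 row. The genes were selected on the cold comparisons of these same libraries, where an earlier ranking placed them among the largest falls in adipocytes of iBAT, mPRAT or iWAT. Their lower levels in the cold are therefore a description with no test, and so are the depot and age comparisons that contain a 6-month library of iBAT, mPRAT or iWAT at room temperature, since the selection favoured genes high in those libraries. The selection did not use the values of the 1-month, 2-month and lPRAT libraries. It also did not directly use the other classes of nuclei or the differences between adipocyte-like nuclei of one library. In the 6-month libraries of iBAT, mPRAT and iWAT, however, these cannot be taken as independent of the values that it used. The working name of the set, genes lowered by cold in brown adipocytes, describes Tmem132b, Lctl and Vat1l, on values that the selection used. Efemp1, Ahnak and Phldb1 were also lower in cold iBAT, at log2 differences of -2.65, -1.64 and -2.31, but had their highest levels in iWAT at room temperature. The data went against the name for Ccdc152 and Gabrr2, which were below 10 UMI counts per 1000000 (CPM) in both 6-month iBAT libraries and had their largest cold differences in iWAT.

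Single-nucleus RNA was sequenced in 12 libraries of adipose tissue from male C57BL/6J mice fed normal chow. The depots carry the abbreviations iBAT, mPRAT, lPRAT and iWAT, which usually stand for interscapular brown, medial and lateral perirenal, and inguinal white adipose tissue. Room temperature was 22 °C, with 3 libraries each for iBAT and mPRAT (aged 1, 2 and 6 months), a pair for lPRAT (aged 2 and 6 months) and 1 for iWAT (aged 6 months). For iBAT, mPRAT and iWAT at 6 months, 1 further library each came from mice kept at 4 °C for 3 days. The libraries titled 6 months are given as 16 weeks old in another label, and those titled 1 and 2 months as 4 and 8 weeks. The number of animals behind a library is not given in the sources used here. With 1 library per group, the 95% intervals below cover counting error only, and differences between animals, dissections and preparations cannot be told apart from those between conditions.

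Brown adipocytes burn fuel for heat through the uncoupling protein UCP1, and white adipocytes mainly store it. In the cold, sympathetic nerves release noradrenaline onto both, and the resulting cyclic AMP signal raises thermogenic genes and releases fatty acids. Less is known of the genes whose transcripts fall at the same time, and the 8 genes described here belong to no single pathway. Tmem132b encodes a membrane protein of a family studied mainly in neurons. Lctl encodes a membrane protein of the klotho family, whose better known relatives are co-receptors for circulating fibroblast growth factors. Vat1l resembles the vesicle protein and quinone oxidoreductase VAT1. Efemp1 encodes fibulin-3, a secreted glycoprotein of the extracellular matrix, and Ahnak a very large scaffold protein under the plasma membrane that binds the annexin 2 complex. Phldb1 encodes LL5-alpha, a protein that binds membrane phosphoinositides. Gabrr2 encodes a rho subunit of the ion channel opened by GABA, and Ccdc152 a coiled-coil protein whose gene abuts that of selenoprotein P.

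The 12 libraries held 119035 barcodes, of which 96643 were kept, from 3163 to 17485 a library. The shallowest library, young lPRAT, held 5461133 counts of unique molecules (UMIs) and the deepest, cold iBAT, 87035783. Any pair of libraries shared 3 to 76 barcodes. Clusters named from adipocyte markers held 65069 nuclei, called adipocyte-like here, and 84.4% of these also met a gate on the adipocyte markers within the single nucleus. Cold mPRAT stood apart because 66.0% of its barcodes with enough UMIs and genes exceeded the limit on mitochondrial counts. Its adipocyte-like nuclei also held 257 CPM of a urothelial marker list and 129 CPM of a mesothelial list, against 10.2 and 4.88 CPM at room temperature. The part of these in the mPRAT values was not tested. The 4 reference genes of the cold response were higher in the cold libraries where they were measured, with Ucp1 at 438 CPM at room temperature and 1469 CPM in the cold in iBAT, 199 and 732 CPM in mPRAT, and 0.813 and 31.1 CPM in iWAT. Elovl3 was higher in the cold by 4.56 log2 units in iBAT and 4.74 in mPRAT, Dio2 by 1.72 and 1.78, and Ppargc1a by 0.37 and 1.24.

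The windows from 250 bases before to 50 bases after the annotated start of transcription are shown for the 5 genes with the largest cold differences. Tmem132b, Lctl and Vat1l led in iBAT, and Ccdc152 and Gabrr2 in iWAT. The sequences are those of RefSeq on GRCm38.p6, printed 5′ to 3′ on the gene's strand. The starts are also those of RefSeq, which can differ from the GENCODE gene positions given below. The window of Tmem132b lies wholly inside its GENCODE gene. Capitals mark GGGCGG, or CCGCCC where it lies on the opposite strand, and AGGTCA, the motifs of those searched that occurred. GGGCGG is the GC box bound by Sp1-type factors, and AGGTCA is the half-site of many nuclear receptors.
Tmem132b, chr5:125532168-125532467, plus strand: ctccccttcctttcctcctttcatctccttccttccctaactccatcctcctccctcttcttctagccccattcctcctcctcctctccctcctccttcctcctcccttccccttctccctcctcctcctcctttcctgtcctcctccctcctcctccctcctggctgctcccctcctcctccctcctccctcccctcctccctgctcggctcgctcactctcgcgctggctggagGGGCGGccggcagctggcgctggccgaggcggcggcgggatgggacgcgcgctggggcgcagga
Lctl, chr9:64116897-64117196, plus strand: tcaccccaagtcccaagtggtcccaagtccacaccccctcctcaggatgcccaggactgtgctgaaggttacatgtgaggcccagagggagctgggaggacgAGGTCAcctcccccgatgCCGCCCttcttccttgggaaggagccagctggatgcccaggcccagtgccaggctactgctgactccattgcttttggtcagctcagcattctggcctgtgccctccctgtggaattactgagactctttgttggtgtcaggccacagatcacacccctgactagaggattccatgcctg
Vat1l, chr8:114205390-114205689, plus strand: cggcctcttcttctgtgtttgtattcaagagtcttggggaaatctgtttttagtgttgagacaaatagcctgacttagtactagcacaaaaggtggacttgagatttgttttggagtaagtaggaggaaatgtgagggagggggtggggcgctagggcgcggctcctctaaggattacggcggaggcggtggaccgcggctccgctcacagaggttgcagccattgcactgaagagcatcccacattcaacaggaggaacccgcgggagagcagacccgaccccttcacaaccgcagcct
Ccdc152, chr15:3303477-3303776, minus strand: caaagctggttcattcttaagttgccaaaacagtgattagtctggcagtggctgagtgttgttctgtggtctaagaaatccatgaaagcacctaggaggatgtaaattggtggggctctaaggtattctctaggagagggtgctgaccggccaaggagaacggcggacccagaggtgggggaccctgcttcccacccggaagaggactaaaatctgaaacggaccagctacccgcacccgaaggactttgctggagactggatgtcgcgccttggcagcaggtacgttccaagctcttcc
Gabrr2, chr4:33062862-33063161, plus strand: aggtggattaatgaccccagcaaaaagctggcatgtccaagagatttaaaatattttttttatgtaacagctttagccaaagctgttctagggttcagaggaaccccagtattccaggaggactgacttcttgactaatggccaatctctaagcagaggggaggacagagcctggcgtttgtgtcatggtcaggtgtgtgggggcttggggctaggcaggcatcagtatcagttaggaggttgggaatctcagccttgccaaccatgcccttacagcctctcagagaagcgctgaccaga

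By composition the windows of Vat1l and Ccdc152 were close, at 54.3% and 53.7% G or C with 14 and 10 CpG dinucleotides, and neither held a motif searched. Tmem132b had a pyrimidine-rich stretch before its start and 67.7% G or C over the window, against a median of 52.7% over all 32851 windows of the same length. Gabrr2 had the least of the 5, 49.3%, and 2 CpG dinucleotides, where the median window had 7. Tmem132b and Lctl both held the GC box. The single GC box of Tmem132b began 14 bases before the start. Lctl held AGGTCA 148 bases before the start and CCGCCC 130 bases before it. Over all 8 genes, 5 windows held GGGCGG on either strand, in Tmem132b, Lctl, Efemp1, Ahnak and Phldb1, beside 35.7% of all windows. AGGTCA was found in 1 of 8, beside 16.3% of all windows. The cyclic AMP response element TGACGTCA occurred in none of the 8 and in 1.79% of all windows, and its core TGACG, which is part of the full element, in none and 20.8%. CACGTG (7.15%), TATAAA (13.6%) and TGTTTAC (3.65%) were also in none. A match is a run of letters, and none of these counts says whether a factor binds.

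Tmem132b lies on chromosome 5 (GRCm38, GENCODE M21, chr5:125531774-125792583, plus strand). In adipocyte-like nuclei of iBAT its level was 84.0, 281 and 392 CPM at 1, 2 and 6 months of age and 7.20 CPM in the cold. In mPRAT it stood at 193, 282.5 and 138 CPM at 1, 2 and 6 months and at 8.19 CPM in the cold. In lPRAT the values were 16.75 and 5.24 CPM at 2 and 6 months, and in iWAT 16.5 CPM at room temperature and 6.50 CPM in the cold. The 6 libraries of iBAT and mPRAT at room temperature were thus all above the other 6. The other 6 include the 3 cold libraries, where the selection favoured low levels. How many of all genes part the libraries in this way is not given here, so nothing is read from this order. The 3 cold libraries and lPRAT at 6 months ended the order, and neighbours among them did not differ beyond their intervals. Tmem132b in cold iBAT was 54.4-fold lower than at room temperature (95% interval 49.7 to 59.5), a log2 difference of -5.76. In mPRAT it was 16.9-fold lower (13.6 to 21.1), and in iWAT the log2 difference was -1.34 (-1.65 to -1.04). Among the 8213 genes measured in the iBAT comparison Tmem132b had rank 1 by fall when 10 CPM was added to both libraries, and in mPRAT it had rank 3 of 8442.

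Lctl lies on chromosome 9 (chr9:64117147-64138118, plus strand) and overlaps Zwilch on the opposite strand by 975 bases. In iBAT it stood at 222 CPM at 1 month, 92.0 at 2 months, 230.5 at 6 months and 5.39 CPM in the cold. The mPRAT libraries gave 101, 94.8 and 142 CPM with age and 22.5 CPM in the cold. In lPRAT it stood at 84.55 and 158.5 CPM, and in iWAT at 45.2 CPM at room temperature and 29.0 CPM in the cold. Lctl was thus not a gene of the brown depots alone, since lPRAT at 6 months held more than any mPRAT library and came after only iBAT at 6 and 1 months, which did not differ beyond their intervals. All 3 cold libraries, which entered the selection, were below the other 9. The fold of room temperature over cold was 42.7 in iBAT (38.6 to 47.5), and the log2 differences in mPRAT and iWAT were -2.66 (-2.85 to -2.46) and -0.64 (-0.79 to -0.49). The iWAT value was the only one of the 8 genes that stayed short of 1 log2 unit in a cold comparison.

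Vat1l lies on chromosome 8 (chr8:114205612-114374071, plus strand), with 10320 bases shared with 4933408N05Rik on the opposite strand. Its levels in iBAT were 106.5, 134 and 209 CPM at 1, 2 and 6 months and 5.16 CPM in the cold. In mPRAT they were 105, 153 and 104 CPM, and 25.7 CPM in the cold. In lPRAT they were 7.58 and 2.88 CPM, and in iWAT 70.8 CPM at room temperature and 35.3 CPM in the cold. Vat1l and Lctl therefore parted in lPRAT at 6 months, where Vat1l had its lowest level of the 12 libraries and Lctl was exceeded only by iBAT at 6 and 1 months. The white depot iWAT held 24.6-fold more Vat1l than lPRAT at 6 months. In the cold, Vat1l was 40.4-fold lower in iBAT (36.4 to 45.0) and at log2 differences of -2.02 in mPRAT (-2.20 to -1.83) and -1.004 in iWAT (-1.14 to -0.87). The iBAT differences of Tmem132b, Lctl and Vat1l had ranks 1, 2 and 3 of 8213. Cold iBAT ended below cold mPRAT for Lctl, by a log2 difference of -2.06, and for Vat1l, by -2.32, but for Tmem132b the interval of that difference, -0.52 to 0.16, spanned 0.

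Efemp1 lies on chromosome 11 (chr11:28853204-28926743, plus strand). In iBAT its levels were 8.92, 6.53 and 60.8 CPM at 1, 2 and 6 months and 9.70 CPM in the cold, and in mPRAT they were 20.4, 19.6 and 96.7 CPM and 28.0 CPM in the cold. In lPRAT they were 130 and 94.6 CPM, and in iWAT 240 CPM at room temperature and 58.1 CPM in the cold. Efemp1 was thus low in the young libraries of both brown depots, and cold iBAT at 6 months did not differ beyond its interval from iBAT at 1 month. The log2 differences in the cold were -2.65 in iBAT (-2.77 to -2.53), -1.79 in mPRAT (-1.97 to -1.61) and -2.05 in iWAT (-2.14 to -1.95).

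Ahnak, on chromosome 19 (chr19:8989284-9076914, plus strand), was best counted in iWAT. It stood at 424, 231 and 161 CPM in iBAT with age and 51.5 CPM in the cold, and in mPRAT at 485, 295 and 259 CPM and 89.2 CPM in the cold. In lPRAT it stood at 531 and 429 CPM, and in iWAT at 1209 CPM at room temperature and 322 CPM in the cold. The cold libraries of iBAT and mPRAT were the lowest of the 12, while cold iWAT was above all 6-month and 2-month libraries of iBAT and mPRAT. The log2 differences in the cold were -1.64 in iBAT (-1.70 to -1.58), -1.54 in mPRAT (-1.64 to -1.44) and -1.91 in iWAT (-1.95 to -1.87).

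Phldb1 lies on chromosome 9 (chr9:44686304-44735198, minus strand), 2 bases of it shared with Treh on the opposite strand. The protein is known to bind phosphoinositides made on insulin signalling in adipocytes. Its levels in iBAT were 120, 70.75 and 72.7 CPM with age and 14.7 CPM in the cold, and in mPRAT 151, 121 and 159 CPM and 56.1 CPM in the cold. In lPRAT they were 117 and 235 CPM, and in iWAT 298 CPM at room temperature and 106.5 CPM in the cold. As with Ahnak, the cold iBAT and mPRAT libraries were the lowest pair, and iWAT at room temperature was the highest. The log2 differences in the cold were -2.31 in iBAT (-2.41 to -2.20), -1.50 in mPRAT (-1.63 to -1.38) and -1.48 in iWAT (-1.56 to -1.41).

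Ccdc152 lies on chromosome 15 (chr15:3280070-3303526, minus strand) and shares 439 bases with Selenop on the opposite strand. Its levels in iBAT were 1.72, 6.36 and 4.5 CPM with age and 2.17 CPM in the cold, and in mPRAT 6.88, 11.8 and 16.6 CPM and 7.14 CPM in the cold. In lPRAT they were 44.7 and 62.75 CPM, and in iWAT 117 CPM at room temperature and 7.89 CPM in the cold. At room temperature Ccdc152 was thus higher in the libraries of lPRAT and iWAT than in those of iBAT and mPRAT. Cold iWAT was below mPRAT at 2 and 6 months. It stood at the level of mPRAT at 1 month and of cold mPRAT, without a difference beyond the intervals. The iWAT difference was 14.8-fold (12.4 to 17.8), with rank 4 of 7806. In mPRAT the log2 difference was -1.21 (-1.59 to -0.86). The iBAT difference of -1.05 rests on levels below the minimum of a mean of 10 CPM over both libraries. Selenop, named because of the shared bases, was higher in cold iWAT, at 52.45 CPM against 32.5 CPM. In mPRAT its log2 difference was 0.28 (0.05 to 0.50), and in iBAT it was lower in the cold, at -0.42 (-0.57 to -0.26). Whether strand was used in counting is not given in the sources used here, so reads in the shared bases of this pair and of the other overlapping genes cannot be told apart.

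Gabrr2, on chromosome 4 (chr4:33062999-33095865, plus strand), followed Ccdc152 in its peak. In iBAT it stood at 5.16, 6.65 and 9.83 CPM with age and 2.54 CPM in the cold, and in mPRAT at 8.85, 7.30 and 9.55 CPM and 1.52 CPM in the cold. In lPRAT it stood at 8.77 and 19.1 CPM, and in iWAT at 65.3 CPM at room temperature and 3.31 CPM in the cold. iWAT at room temperature exceeded every other library by at least the 3.43-fold that separated it from lPRAT at 6 months. The 3 cold libraries, which entered the selection, were the lowest of the 12. The iWAT difference was 19.7-fold (15.1 to 26.3), with rank 9 of 7806. The log2 differences of -1.95 in iBAT and -2.65 in mPRAT were at levels below the minimum.

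**Figure D1:**
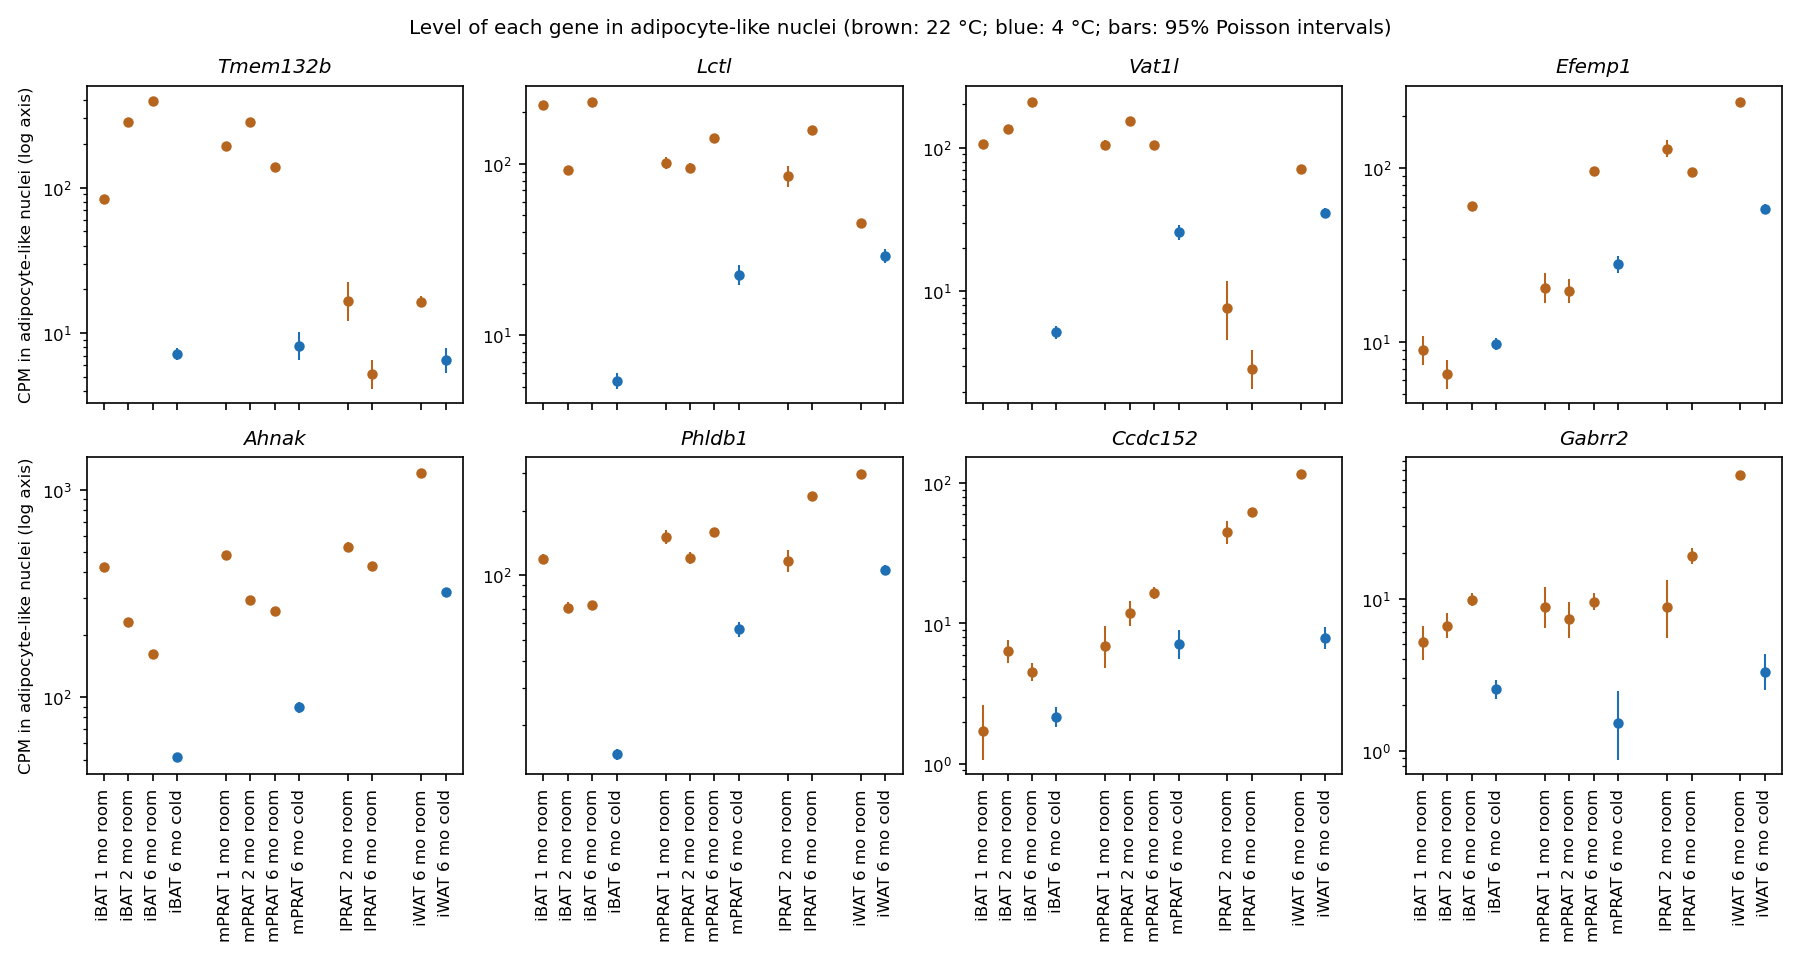
Level of each of the 8 genes (CPM, log axis) in the adipocyte-like nuclei of the 12 libraries, with bars for the exact 95% Poisson interval of the count. Tmem132b, Lctl and Vat1l peak in iBAT at 6 months, and the other 5 genes peak in iWAT at room temperature. For Lctl the peak does not differ beyond its interval from iBAT at 1 month.

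A gene counted as measured in a comparison when the mean of both libraries was at least 10 CPM with at least 20 UMIs, and as lower or higher when it differed by at least 1 log2 unit. In iBAT 6 of the 8 genes were measured and 6 of these were lower in the cold, while 8.11% of all genes measured were lower by that much. In mPRAT 7 of 7 were lower, beside 5.12% of all genes, and in iWAT 7 of 8, beside 5.33%. The median log2 difference of the measured members was -3.99 in iBAT, -1.79 in mPRAT and -1.70 in iWAT, and of all genes -0.05, -0.02 and -0.13. Since the genes were selected on these comparisons, nothing is read from these counts. A gene near the minimum also passes it through the library where it is high, as Tmem132b did in iWAT and Ccdc152 in mPRAT. The member nearest the limit of 1 log2 unit was Vat1l in iWAT at -1.004, and the only one that did not reach it was Lctl in iWAT at -0.64, whose interval lay wholly short of it. Vat1l and Tmem132b in iWAT and Ccdc152 and Phldb1 in mPRAT fell short of the limit under at least 1 alternative.

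**Figure D2:**
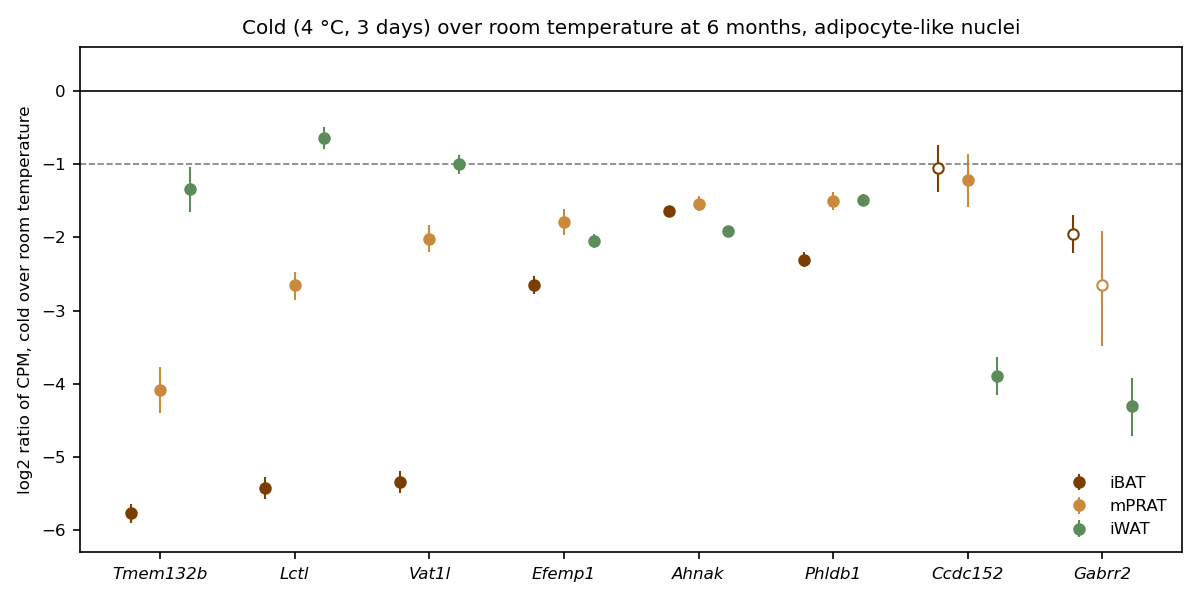
Log2 ratio of cold over room temperature at 6 months for the 8 genes in iBAT, mPRAT and iWAT adipocyte-like nuclei, with exact 95% intervals. Open circles mark genes below the minimum level, and every point lies below 0, from -5.76 for Tmem132b in iBAT to -0.64 for Lctl in iWAT.

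Nuclei of the 2 temperatures fell mostly into different clusters in iBAT, partly so in mPRAT, and into the same 3 clusters in iWAT. The 8 genes were left out of the clustering. In iBAT, cluster 10 held 75.5% of the adipocyte-like nuclei at room temperature and cluster 26 held 96.8% in the cold. In mPRAT, clusters 0 and 10 held 37.0% and 34.7% at room temperature, and clusters 5 and 0 held 54.4% and 31.7% in the cold. Cluster 5 was named adipocyte-like only by the naming rule as revised after the clusters were seen. The first rule left it unnamed, with epithelial or urothelial as the next class. The cold mPRAT values and the split of that library by Ucp1 thus rest in part on this cluster. In iWAT, clusters 3, 27 and 0 held 57.0%, 25.7% and 15.03% at room temperature and 47.35%, 8.18% and 36.3% in the cold. The iWAT clusters therefore changed in share, and members were also compared within one cluster at both temperatures. This comparison was added after the data were seen.

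Within iWAT cluster 27, with 219 cold and 1072 room-temperature nuclei, Ccdc152 stood at 17.9 CPM in the cold against 227.5 CPM and Gabrr2 at 14.2 against 139 CPM. Their log2 differences were -3.67 and -3.29 there, -2.60 and -3.20 in cluster 3, and -2.99 and -2.03 in cluster 0. The lower levels of both genes in cold iWAT were thus present in each of the 3 clusters. Each difference was smaller than over all adipocyte-like nuclei, at -3.89 for Ccdc152 and -4.30 for Gabrr2. For Gabrr2 cluster 0 held only 6 UMIs in the cold and 19 at room temperature (-3.64 to -0.65). Efemp1 differed by -1.46, -0.97 and -1.02 in clusters 27, 3 and 0, less than the -2.05 over all adipocyte-like nuclei. For Ahnak the 3 values were -1.47, -1.57 and -1.35, and for Phldb1 -1.18, -1.32 and -1.48. Vat1l differed by -2.22, -1.45 and -1.16 in clusters 27, 3 and 0, each beyond its -1.004 over all adipocyte-like nuclei. Tmem132b differed by -0.62 (-1.79 to 0.37), -2.02 and -1.70. Lctl differed by -0.53 (-0.86 to -0.21), -0.20 (-0.43 to 0.03) and -0.32 (-0.65 to 0.01), so that only the interval of cluster 27 excluded 0.

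In mPRAT, cluster 0 was the largest cluster with nuclei of both temperatures, 680 in the cold and 1241 at room temperature. Tmem132b differed by -3.46, Lctl by -1.54 and Vat1l by -1.28. Efemp1, Ahnak and Phldb1 differed by -0.83, -0.90 and -0.84, short of 1 log2 unit. For these 6 genes the differences were smaller than over all adipocyte-like nuclei. Ccdc152 had the opposite sign there, at 14.02 CPM in the cold against 8.88 CPM, a log2 difference of 0.66 (0.12 to 1.19). The lower Ccdc152 of cold mPRAT as a whole, 7.14 against 16.6 CPM, thus did not hold within this cluster. In 2 smaller mPRAT clusters, 2 (74 cold and 96 room-temperature nuclei) and 26 (153 and 60), Efemp1 differed by 0.07 and 0.09, Phldb1 by 0.53 and -0.38 and Ahnak by -0.21 and -0.58, all with intervals that spanned 0. Tmem132b was lower there too, with 0 UMIs in the cold nuclei of cluster 2 (a log2 difference of at most -3.54) and -3.23 (-5.27 to -1.60) in cluster 26. Vat1l was also lower in clusters 2 and 26, at -2.20 (-4.13 to -0.77) and -1.42 (-2.57 to -0.29). Lctl differed by -0.84 (-2.13 to 0.26) in cluster 2 and by -1.59 (-3.25 to 0.002) in cluster 26. In iBAT, cluster 0 held only 103 cold and 165 room-temperature nuclei. There Tmem132b differed by -3.54, Lctl by -2.29, Vat1l by -3.05 and Efemp1 by -3.14. Ahnak differed by -1.86 and Phldb1 by -1.18, while the intervals of Ccdc152 (-2.06 to 1.17) and Gabrr2 (-7.74 to 1.61) spanned 0. Cluster 8, with 77 cold and 636 room-temperature nuclei, had 0 UMIs of Tmem132b and Lctl in the cold, at most -4.39 and -3.41 log2 units. Vat1l differed by -4.34 there, on 1 UMI in the cold. The other members showed less in cluster 8, with Efemp1 at most -0.45 and Ahnak at -0.93 (-1.97 to -0.04). Phldb1 was at -0.97 (-2.91 to 0.48), and Ccdc152 and Gabrr2 had too few UMIs for a value.

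**Figure D3:**
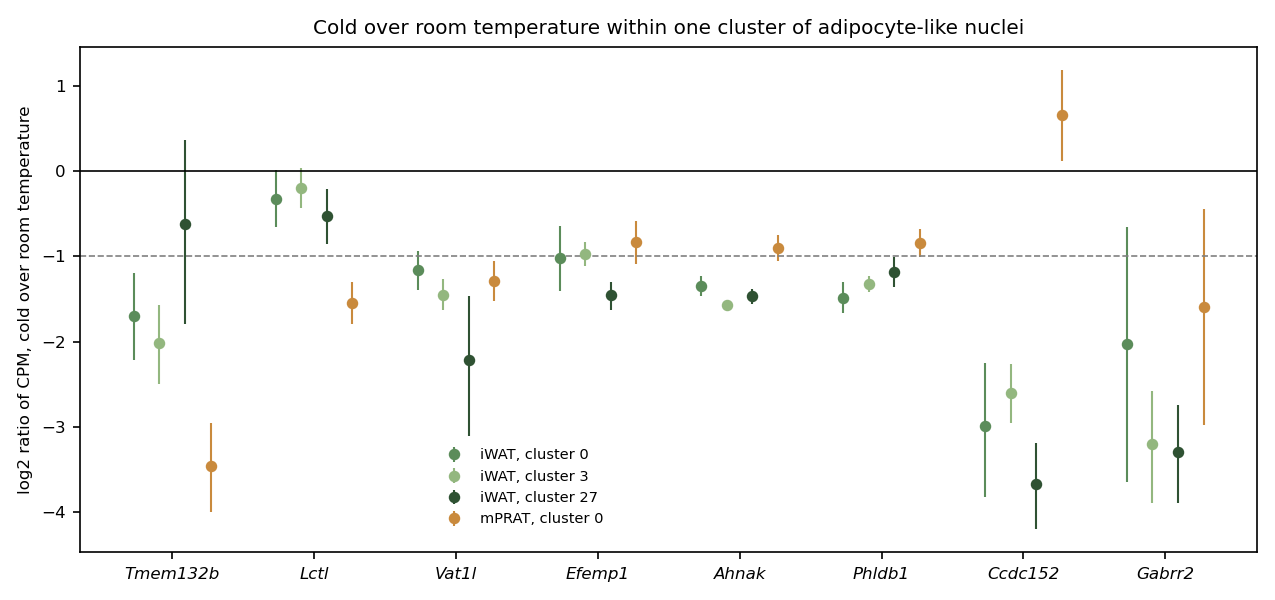
Log2 ratio of cold over room temperature within single clusters of adipocyte-like nuclei that held nuclei of both temperatures, with exact 95% intervals, for mPRAT cluster 0 and iWAT clusters 0, 3 and 27. Ccdc152 and Gabrr2 lie between -3.67 and -2.03 in the iWAT clusters, and Ccdc152 in mPRAT cluster 0 lies above 0.

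Markers of other cells inside adipocyte-like nuclei were not lower in cold iWAT. The 9 markers of adipose stem and progenitor cells (ASPCs) summed to 63.3 CPM at room temperature and 82.4 CPM in the cold in iWAT, and to 39.3 and 54.4 CPM in mPRAT. In iBAT they summed to 17.25 and 6.41 CPM, in the same direction as Efemp1, a gene high in ASPCs. None of the 9 markers was at 0 in any library. The 8 macrophage markers summed to 102 and 119 CPM in iWAT, 74.8 and 64.0 CPM in mPRAT, and 30.6 and 12.8 CPM in iBAT. Their part in the member values was not tested.

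At room temperature the 8 genes split by depot. In iBAT against iWAT at 6 months, 3 genes were higher, Tmem132b by 4.57 log2 units, Lctl by 2.35 and Vat1l by 1.56, beside 14.1% of all genes measured. The other 5 were lower, beside 12.3% of all genes. Their log2 differences were -4.70 for Ccdc152, -2.91 for Ahnak, -2.73 for Gabrr2, -2.04 for Phldb1 and -1.98 for Efemp1. Every gene therefore differed between the depots by more than 1 log2 unit, and the depot where it was higher was also the one with the larger cold difference for Tmem132b, Lctl, Vat1l, Ccdc152, Gabrr2 and Ahnak. Efemp1 and Phldb1 were higher in iWAT but differed more with cold in iBAT. The cold and depot comparisons share the room-temperature libraries, so this is given as values side by side only, and nothing is read from the depot counts against all genes.

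The mPRAT depot lay between the others for most of the genes. Against iWAT, mPRAT had 2 genes higher, Tmem132b by 3.07 and Lctl by 1.65 log2 units, beside 7.78% of all genes. It had 4 lower, Ccdc152 at -2.82, Gabrr2 at -2.77, Ahnak at -2.22 and Efemp1 at -1.31, beside 5.31%. iBAT exceeded mPRAT in 2 of 7 measured genes, Tmem132b by 1.50 and Vat1l by 1.01, beside 4.65% of all genes. It was below mPRAT in 2, Ccdc152 at -1.88 and Phldb1 at -1.13, beside 6.72%. Between the perirenal depots at 6 months, mPRAT exceeded lPRAT by 4.72 log2 units for Tmem132b and 5.17 for Vat1l. Lctl and Efemp1 differed little between the perirenal depots, by -0.16 (-0.24 to -0.09) and 0.03 (-0.06 to 0.13).

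With age the genes differed in different directions. In iBAT and mPRAT the 6-month libraries entered the selection, which favours genes high in them, so nothing is read from the counts of genes higher or lower at 6 months in these depots. In iBAT between 1 and 6 months, Efemp1 was higher by 2.77 log2 units and Tmem132b by 2.22, which made 2 of 6 measured genes beside 4.77% of all. Ahnak was lower, at -1.40, which made 1 of 6 beside 4.97%. The steps between neighbouring ages were uneven. Tmem132b differed by 1.74 from 1 to 2 months and by 0.48 from 2 to 6 months, Efemp1 by -0.45 and then 3.22, and Lctl by -1.27 and then 1.33. Lctl at 6 months was thus back at its 1-month level, with a log2 difference of 0.05 (-0.01 to 0.11). Ahnak was lower at each step, by -0.88 and -0.52.

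In mPRAT between 1 and 6 months, 2 of 7 measured genes were higher, Efemp1 by 2.24 and Ccdc152 by 1.27, beside 4.75% of all genes, and none was lower, beside 4.64%. Efemp1 differed by -0.06 from 1 to 2 months and by 2.30 from 2 to 6 months, beside -0.45 and 3.22 in iBAT. The 6-month libraries of both depots entered the selection, so nothing is read from this likeness. Tmem132b was higher at 2 months, by 0.55, and lower at 6 months than at 2, at -1.03. Vat1l ended where it began, at -0.01 (-0.14 to 0.13). In lPRAT between 2 and 6 months, 2 of 7 measured genes were higher, Gabrr2 by 1.12 and Phldb1 by 1.00, beside 10.7% of all genes, and Tmem132b was lower at -1.68, which made 1 of 7 beside 7.35%. Gabrr2 and Tmem132b were each below 10 CPM in one of these libraries and passed the minimum through the other, so nothing is read from these counts either. Efemp1 was lower at 6 months, at -0.45. The adipocyte-like nuclei of the young lPRAT library held 411 CPM of ASPC markers and 79.8 CPM of mesothelial markers, against 39.8 and 15.1 CPM at 6 months. Efemp1 is high in both of these classes, with 709.5 CPM in ASPC-like and 914 CPM in mesothelial-like nuclei of young lPRAT. Their part in the lPRAT differences was not tested.

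The class of nucleus gave a further division. Lctl was highest in adipocyte-like nuclei in all 12 libraries, Tmem132b in 11 and Vat1l in 9, among classes with at least 50 nuclei. These counts include the adipocyte-like levels of the 6-month libraries of iBAT, mPRAT and iWAT, which the selection used, so they are given as a description. The median over libraries of Lctl was 93.4 CPM in adipocyte-like, 12.5 in ASPC-like, 13.5 in endothelial-like and 9.77 in macrophage-like nuclei. Vat1l reached 142 CPM in the only library with enough Schwann-like nuclei, mPRAT at 1 month. This rests on 9 UMIs in 50 nuclei, and its interval of 64.8 to 269 CPM held the adipocyte-like level there, 105 CPM. Ccdc152 was highest in adipocyte-like nuclei in 9 libraries and Gabrr2 in 6. Their medians were 7.52 and 8.04 CPM in adipocyte-like nuclei and 2.02 and 2.21 CPM in ASPC-like nuclei. Kidney tubule-like nuclei had a higher median of Ccdc152, 9.11 CPM over 2 libraries. T or NK cell-like nuclei had a higher median of Gabrr2, 12.5 CPM over 6 libraries.

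Efemp1, Ahnak and Phldb1 were not adipocyte genes in this sense. Efemp1 was highest in adipocyte-like nuclei in none of the 12 libraries. Its level in mesothelial-like nuclei ran from 914 to 2318 CPM over 5 libraries, with a median of 1376 CPM, and in ASPC-like nuclei from 57.95 to 709.5 CPM, with a median of 291 CPM. Adipocyte-like nuclei had a median of 43.05 CPM. Ahnak was found in every class, with a median of 563 CPM in ASPC-like, 496 in macrophage-like, 472 in endothelial-like and 308 in adipocyte-like nuclei, and only 1 library had its highest level in adipocyte-like nuclei. Phldb1 had medians of 208 CPM in ASPC-like, 149 in mural-like and 118 in adipocyte-like nuclei.

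**Figure D4:**
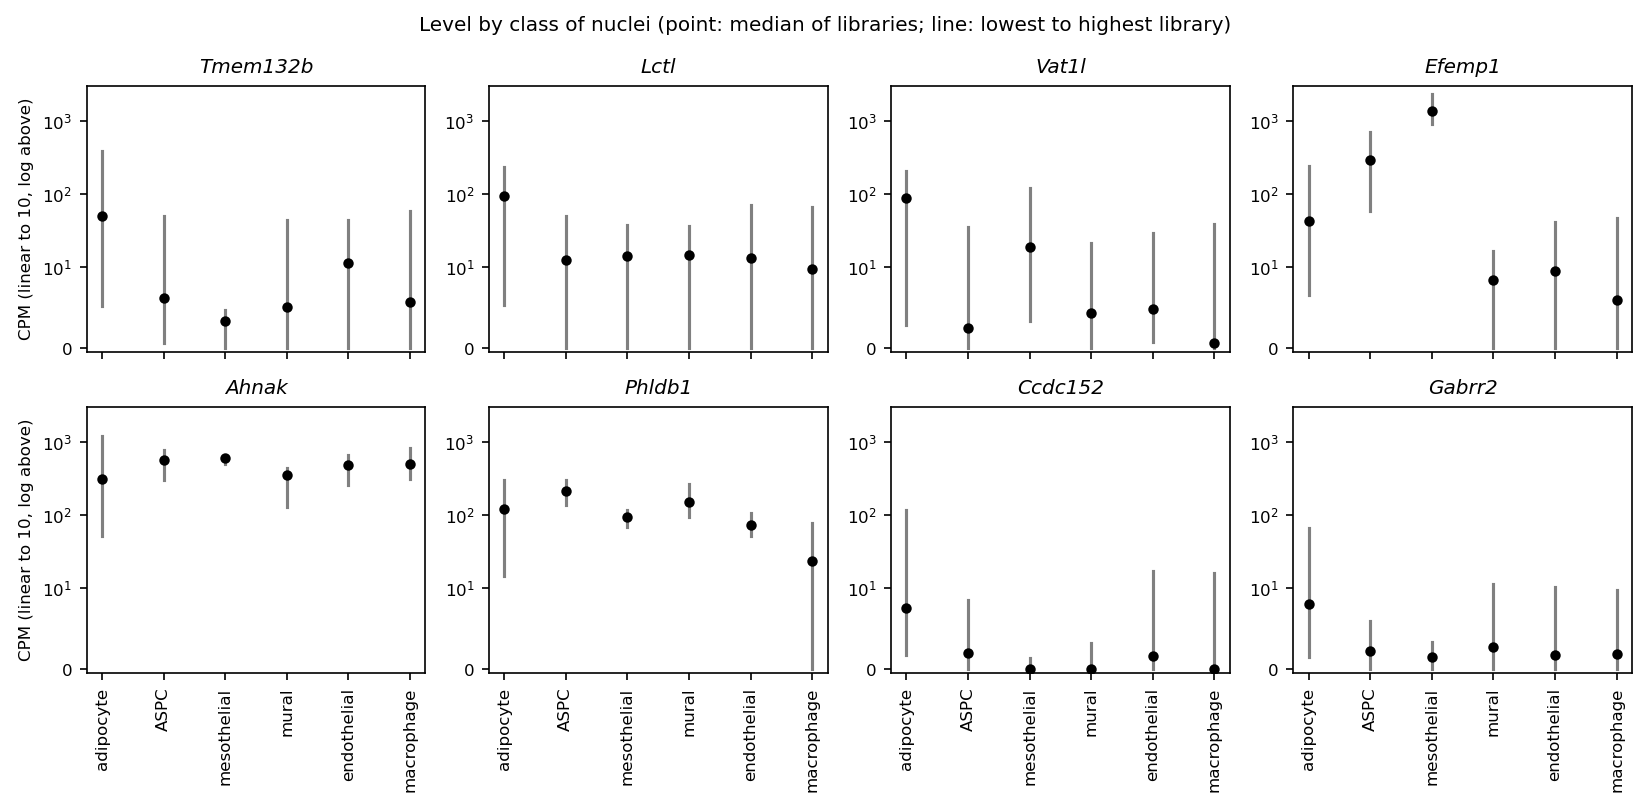
Level of each of the 8 genes (CPM) in adipocyte-like, ASPC-like, mesothelial-like, mural-like, endothelial-like and macrophage-like nuclei. Points are medians over the libraries with at least 50 nuclei of the class, and lines run from the lowest to the highest library. Among these classes the medians of Tmem132b, Lctl, Vat1l, Ccdc152 and Gabrr2 are highest in adipocyte-like nuclei. Some classes not drawn have higher medians: Schwann-like for Vat1l, kidney tubule-like for Ccdc152 and T or NK cell-like for Gabrr2. The median of Efemp1 is highest in mesothelial-like and then ASPC-like nuclei, and Ahnak lies at similar levels in many classes.

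In ASPC-like nuclei, where Efemp1, Ahnak and Phldb1 were well counted, the temperatures differed little. Efemp1 in ASPC-like nuclei stood at 130 CPM at room temperature and 126 CPM in the cold in iBAT, 478 and 521 CPM in mPRAT, and 351 and 294 CPM in iWAT. Its log2 differences were -0.05 (-0.34 to 0.25), 0.12 (-0.06 to 0.30) and -0.26 (-0.42 to -0.10). For Ahnak they were -0.38, 0.23 and -0.48, and for Phldb1 -0.12, -0.45 and -0.24, all short of 1 log2 unit. In macrophage-like nuclei of iWAT, Ahnak differed by -0.97 (-1.20 to -0.75) and Phldb1 by -1.76 (-3.04 to -0.68). The other classes differed in sign. Ahnak was lower in the cold in endothelial-like nuclei of iBAT, at -0.31 (-0.52 to -0.10), and of iWAT, at -0.39 (-0.67 to -0.12), and in macrophage-like nuclei of iBAT, at -0.60 (-0.92 to -0.27). Efemp1 was lower in endothelial-like nuclei of iBAT, at -2.71 (-4.78 to -1.04) on 14 and 4 UMIs, and in macrophage-like nuclei of iWAT, at -1.98 (-4.35 to -0.26) on 24 and 3 UMIs. With the opposite sign, Phldb1 in iBAT differed by 0.76 (0.25 to 1.29) in endothelial-like and 0.82 (0.31 to 1.35) in mural-like nuclei, and Ahnak in mPRAT by 0.33 (0.02 to 0.64) in macrophage-like nuclei.

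Tmem132b, Lctl and Vat1l were also lower in the cold in ASPC-like, endothelial-like and macrophage-like nuclei of iBAT. In ASPC-like nuclei, Tmem132b stood at 49.9 CPM at room temperature and 5.38 CPM in the cold, Lctl at 50.7 and 1.08 CPM, and Vat1l at 34.8 and 2.69 CPM. In macrophage-like nuclei, Lctl stood at 66.9 and 3.06 CPM, on 17 and 2 UMIs. In mural-like nuclei Vat1l had 4 and 0 UMIs, too few to show a difference. These levels in other classes moved with the adipocyte-like levels of the same library, and RNA shared between droplets was not tested as their source.

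After each nucleus was thinned to 1000 UMIs, 25.7% of iBAT adipocyte-like nuclei held a Tmem132b UMI at room temperature at 6 months, and 0.551% in the cold. Before thinning the shares were 40.1% and 3.59%, at median depths of 2153.5 and 6622 UMIs. Macrophage-like nuclei, with a median of 836.5 UMIs, gave 1.16% at room temperature (1 of 86 nuclei; 4.91% before thinning), and in the cold, with a median of 1919 UMIs, 0 of 244, which allows a share of up to 1.23%. The thinned cold share of adipocyte-like nuclei thus lay within what the few macrophage-like nuclei allow. By summed counts, Tmem132b in cold iBAT stood at 7.20 CPM in adipocyte-like nuclei (505 UMIs), 1.53 CPM in macrophage-like and 0.793 CPM in endothelial-like nuclei (1 UMI each), and the unthinned share of cold macrophage-like nuclei was 0.353%. In iWAT, 7.04% of adipocyte-like nuclei held a Ccdc152 UMI at room temperature and 0.567% in the cold, beside 1.72% and 0.444% of macrophage-like nuclei. For Gabrr2 the shares were 4.17% and 0.265%, beside 1.23% and 0.444%. Unthinned, they were 26.8% and 3.36% for Ccdc152 and 20.4% and 1.75% for Gabrr2, at medians of 6626.5 and 4714 UMIs, with macrophage-like medians of 1359 and 972 UMIs. Both room-temperature shares were above the macrophage-like share, and each cold macrophage-like share was 1 of 225 nuclei, with an interval of 0.0112% to 2.45% that held both cold adipocyte-like shares. By summed counts, cold iWAT had 7.89 CPM of Ccdc152 in adipocyte-like and 1.80 CPM (1 UMI) in macrophage-like nuclei. Ahnak UMIs were found in 60.55% and 24.0% of iWAT adipocyte-like nuclei, and no class lacked the gene.

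Nuclei with and without a UMI of Ucp1 were compared within a library, again after thinning to 1000 UMIs. In cold mPRAT, 903 nuclei had one and 1163 had none. All 5 measured members were lower by at least 1 log2 unit in nuclei with Ucp1, beside 8.35% of all genes. The split follows the clusters of this library in part, since cluster 5 held 1149 CPM of Ucp1, 5.22 CPM of Lctl and 23.3 CPM of Phldb1, and cluster 0 held 36.1, 41.8 and 102 CPM. Lctl also passed the minimum through the nuclei without Ucp1, so nothing is read from this count. Lctl stood at 6.64 CPM with Ucp1 and 36.1 CPM without, Phldb1 at 21.0 and 71.4, Efemp1 at 11.1 and 37.8, Vat1l at 12.2 and 35.25, and Ahnak at 68.7 and 142. Their log2 differences ran from -2.44 for Lctl (-3.97 to -1.20) to -1.05 for Ahnak (-1.49 to -0.62). Ccdc152 had 0 UMIs in nuclei with Ucp1 and 13 in nuclei without, and at 3 counts for the 0 this is a log2 difference of at most -1.75. Tmem132b was low in both kinds, at 5.54 and 10.3 CPM, and its interval of -2.75 to 0.71 spanned 0.

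In mPRAT at 6 months at room temperature fewer of the genes passed the limit. Of 7 measured members 2 were lower in the 470 nuclei with Ucp1 than in the 2877 without, Efemp1 at -1.86 (-2.78 to -1.06) and Phldb1 at -1.34 (-1.91 to -0.81), beside 8.46% of all genes. Both were also among the 5 of cold mPRAT. Ahnak was lower at -0.63 (-0.98 to -0.30), and Ccdc152, below the minimum level, had 0 UMIs in nuclei with Ucp1 and 41 without, a log2 difference of at most -1.16. Tmem132b was higher with Ucp1, at 248.9 against 147 CPM, a log2 difference of 0.76 (0.45 to 1.06). At 2 months it had the opposite sign, at -0.47 (-0.77 to -0.19) in mPRAT and -0.86 (-1.005 to -0.71) in iBAT, although without thinning the mPRAT value was -0.07 (-0.22 to 0.08). In mPRAT at 6 months, Lctl and Vat1l had intervals that spanned 0, and without thinning Vat1l was higher with Ucp1, at 0.35 (0.23 to 0.48). In mPRAT at 1 month, Lctl was higher with Ucp1, at 0.75 (0.15 to 1.30) and at 0.53 (0.19 to 0.86) without thinning, opposite in sign to cold mPRAT. Even the cold mPRAT nuclei without a Ucp1 UMI were below those of room temperature for Tmem132b, at 10.3 against 147 CPM, and for Lctl, at 36.1 against 141 CPM. In iBAT at 6 months the 6 measured members differed between nuclei with and without Ucp1 by -0.54 to 0.26 at room temperature. In iBAT at 2 months the differences were larger, at -1.09 (-1.43 to -0.76) for Phldb1 and -0.67 (-0.83 to -0.51) for Ahnak. In cold iBAT, Ahnak differed by -0.33 (-0.60 to -0.05). Without thinning only 206 cold iBAT nuclei lacked a Ucp1 UMI, and Lctl then stood at 5.02 CPM with Ucp1 and 28.6 CPM without (log2 difference -2.51), where the thinned difference was -0.49 (-1.46 to 0.55). For Tmem132b in mPRAT at room temperature the difference without thinning was 1.35. A nucleus without a UMI of Ucp1 after thinning can still express it.

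**Figure D5:**
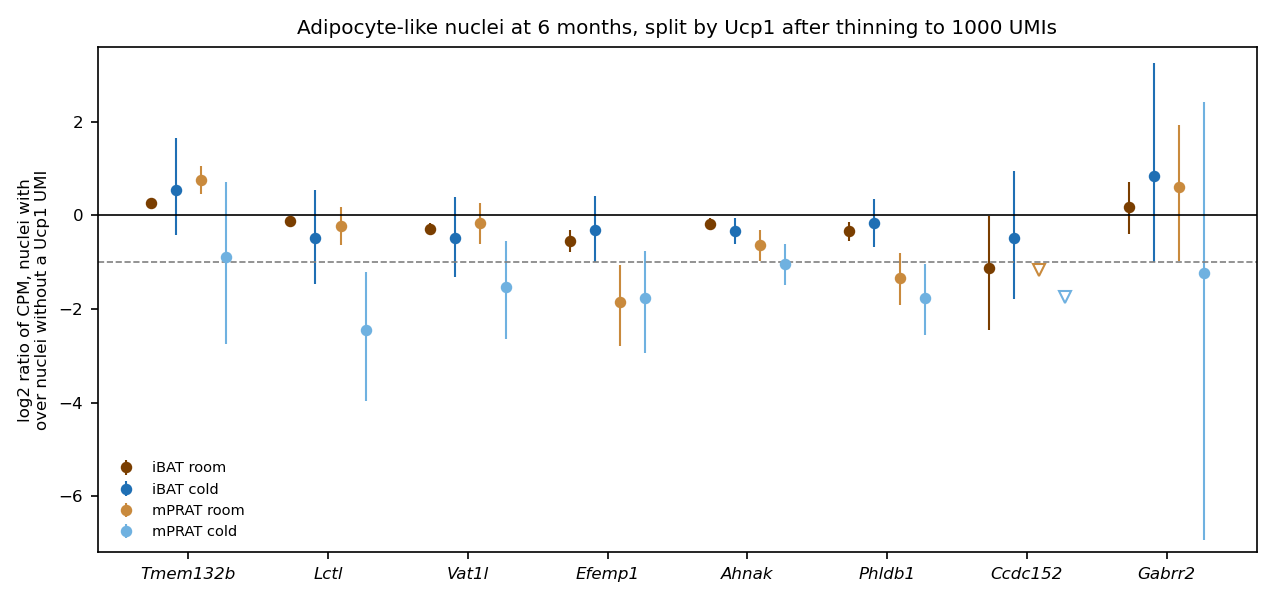
Log2 ratio of the level in adipocyte-like nuclei with over those without a Ucp1 UMI, after thinning to 1000 UMIs, for the 8 genes in 6-month iBAT and mPRAT libraries, with exact 95% intervals; open triangles are bounds from 0 UMIs in the nuclei with Ucp1. In cold mPRAT, Lctl, Vat1l, Efemp1, Ahnak and Phldb1 lie below -1, while the well counted genes of iBAT lie near 0.

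Few relatives and partners of the 8 genes were measured in the cold comparisons, and their counts are to be read beside the 8.11%, 5.12% and 5.33% of all genes lower in iBAT, mPRAT and iWAT. Of the 6 klotho-family and fibroblast growth factor receptor genes listed with Lctl, 3 were measured in each depot and 0 passed 1 log2 unit either way, with medians of -0.44 in iBAT, -0.55 in mPRAT and -0.63 in iWAT. None of 4 TMEM132 genes nor Vat1 was measured at the minimum level. Of 6 fibulins related to Efemp1, 1 was measured, in iWAT only, and it was lower. This was Fbln5, an elastic fibre protein, at 71.4 CPM at room temperature and 3.01 CPM in the cold, a log2 difference of -4.57 (-5.00 to -4.16), and it passed the minimum through the room-temperature library. Of 10 genes listed with Phldb1, 7 were measured in each depot, none was lower, and in iBAT 1 was higher, beside 6.89% of all genes higher there. That gene was Kank1, which links adhesions to the cortical cytoskeleton, at 187.5 and 550 CPM.

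Anxa2, the partner of Ahnak, went against it in iBAT, at 28.4 CPM at room temperature and 62.7 CPM in the cold, a log2 difference of 1.14 (1.05 to 1.24). In mPRAT and iWAT its differences were -0.82 and -0.98. Of 20 GABA receptor subunits besides Gabrr2, 0 were measured in iBAT, 1 in mPRAT and 0 in iWAT, and none passed 1 log2 unit. Of 9 genes of GABA synthesis, uptake and breakdown, 1, 2 and 3 were measured in the 3 depots. The GABA transporter gene Slc6a13 was lower in cold mPRAT, at 51.9 CPM at room temperature and 10.95 CPM in the cold (log2 difference -2.25). Abat, which encodes GABA transaminase, was lower in cold iWAT, at 38.5 and 10.4 CPM (-1.89). Slc6a13 differed by -0.43 in iWAT, and neither gene was measured in iBAT.

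Likeness was measured as Pearson's r of log2(CPM + 10) over the adipocyte-like nuclei of the 12 libraries, with no test, among 8380 genes. The libraries share depots and the cold condition, which entered the selection. Among the members, Ahnak and Phldb1 were the closest pair (r = 0.907), followed by Tmem132b and Vat1l (0.879), Ccdc152 and Gabrr2 (0.845) and Efemp1 and Ccdc152 (0.838). Tmem132b and Ccdc152 had the lowest r, -0.393. The 3 genes most like Tmem132b were Gm26885 (0.971), Cfap53 (0.967) and Zfp568 (0.951). For Lctl they were Caprin2 (0.944), Zmat1 (0.927) and Copa (0.918), and for Vat1l they were Arhgef40 (0.933), Kansl1l (0.917) and Dpyd (0.915). Efemp1 was closest to Agfg1 (0.959), Ttc5 (0.949) and Srgap2 (0.947), and Ahnak to Syde1 (0.954), Cdc42ep4 (0.943) and Ints6l (0.941). The genes most like Phldb1 were Aoc3 (0.967), Lasp1 (0.958) and Pid1 (0.956). For Ccdc152, Gm47416 (0.964) and Arhgap22 (0.962) were among the closest, and for Gabrr2 they were Fbln5 (0.952), Acta2 (0.941) and Lama3 (0.932).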

How the data were processed

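Single-nucleus RNA libraries were made with the 10x 3′ chemistry from sorted nuclei, per the labels. Per gene and barcode, the values are raw UMI counts that the authors made with Cell Ranger 7.0.0, per the file headers, on mm10, per the submitters' processing notes. Strand use, intronic counting and later filters are not given in the sources used here. Depth is given with the report.

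A barcode needed a minimum of 500 UMIs and 300 genes, and its mitochondrial share could not exceed 10%. The highest scrublet doublet scores were removed at 0.8% per 1000 nuclei in every library, because the method's own threshold marked too few in several libraries. All libraries were clustered together in scanpy 1.11.5 on 2000 variable genes without the 8 members, with 30 principal components, 15 neighbours and Leiden resolution 1, which gave 33 clusters. Names ending in "-like" rest on marker lists, with at least 3 markers found at 20 CPM and 2 times the other clusters. The naming rule was revised after the first clusters were seen, and 1517 nuclei stayed unnamed.

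Counts were summed over the nuclei of a class in a library and scaled to a total of 1000000 (CPM). Ratios carry exact conditional binomial intervals, levels exact Poisson intervals and shares exact Clopper-Pearson intervals, all at 95% and for counting error only. A count of 0 was set to 3 counts in a ratio, which is then a bound. Calculations were tested on simulated data. No test between groups was made. TMM scaling used edgeR 4.0.16, as an alternative only. Gene positions are from GENCODE M21 and start windows from RefSeq (GRCm38.p6), where 8 of 8 members were found. The members, gene lists and alternatives were chosen with earlier results of these data known. Named genes are the members, related genes past 1 log2 unit in a cold comparison (at most 3 per list), the 3 genes most like each member, and Ucp1, Elovl3, Dio2 and Ppargc1a. Selenop was added after its values were seen. For Ccdc152, 1 of the 3 most like genes is not reported here.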

Additional observations from a re-analysis of the deposited data

Results flagged for a closer look

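Tmem132b, Vat1l, Efemp1 and Ccdc152 had age differences of opposite sign in different depots, each with an interval of counting error that excludes 0. The share of all genes with such differences is not given here, and the 6-month libraries of iBAT and mPRAT entered the selection. Nothing is therefore read from the number of genes. With 1 library per age the difference between depots was not tested. Tmem132b was higher at 6 than at 1 month in iBAT (log2 difference 2.22) and lower in mPRAT (-0.48). Between 2 and 6 months Tmem132b was higher in iBAT (0.48) and lower in mPRAT (-1.03) and lPRAT (-1.68). Vat1l had the same signs between 2 and 6 months, at 0.64 in iBAT, -0.56 in mPRAT and -1.40 in lPRAT, the last on levels below the minimum. Between 1 and 6 months Vat1l was higher in iBAT (0.97), and in mPRAT its interval spanned 0 (-0.01, -0.14 to 0.13). Efemp1 was higher at 6 than at 2 months in iBAT (3.22) and mPRAT (2.30) and lower in lPRAT (-0.45). The lPRAT value moved with ASPC and mesothelial markers in the same adipocyte-like nuclei, at 411 and 79.8 CPM at 2 months and 39.8 and 15.1 CPM at 6 months, and their part was not tested. Ccdc152 was lower at 6 than at 2 months in iBAT (-0.50, below the minimum level) and higher in mPRAT (0.49) and lPRAT (0.49). Between 1 and 6 months Ccdc152 was higher in both iBAT (1.39, below the minimum level) and mPRAT (1.27).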

How the results depend on the processing

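All 249 alternative values of the 21 measured cold differences kept their sign, under the alternatives that gave a value (doublets kept, no mitochondrial limit, another naming or gate, resolution 2, thinning, TMM scaling, added CPM, means of nuclei, subtraction of the macrophage-like level and no minimum level). Added CPM and no minimum level cannot change a sign, so that part of the count was fixed in advance. In single genes the limit of 1 log2 unit was met by Vat1l in iWAT in 5 of 12 alternatives, by Ccdc152 in mPRAT in 8 of 11, by Tmem132b in iWAT in 10 of 12 and by Phldb1 in mPRAT in 11 of 12 (-0.84 with the first naming rule). Subtraction of the macrophage-like level moved Ahnak in iWAT from -1.91 to -11.36, a bound, since it left nothing in the cold library. The cold counts of members did not move by more than 1.5 times. With main counts of 2, the genes higher in iBAT than in mPRAT numbered 1 with marker-gated nuclei, the first naming rule (added after the data were seen), thinning, 1 CPM added, 10 CPM added, the mean of nuclei and macrophage subtraction. Those lower in iBAT numbered 0 with thinning and 1 with 10 CPM added or the mean of nuclei. Genes higher with age in mPRAT numbered 1 with thinning, 10 CPM added or the mean of nuclei. The gene lower with age in iBAT was lost with subtraction (0). In lPRAT, the genes lower with age numbered 0 with marker-gated nuclei, 10 CPM added or subtraction and 2 with no minimum level, and the genes higher numbered 1 with 1 CPM added and 0 with 10 CPM added. The cause was not tested, and counts this small move with 1 gene at the limit. No paired analysis was possible because each group holds 1 library. Ccdc152 and Gabrr2 in iBAT missed the minimum by their level.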

Other observations

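In iBAT at 6 months at room temperature, the 71 T or NK cell-like nuclei held 374 CPM of Tmem132b (36 UMIs, 95% interval 262 to 518) and 146 CPM of Vat1l (14 UMIs, 79.6 to 244). Macrophage-like nuclei of that library held 59.0 and 39.3 CPM, and adipocyte-like nuclei 392 and 209 CPM. In cold iBAT, 61 T or NK cell-like nuclei held 0 UMIs of either gene, which allows up to 26.3 CPM. How many of these nuclei hold adipocyte RNA was not tested.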
